A study of Mus musculus with 3 samples.

Results

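Brain and liver share a set of transcripts that the testis holds at a much lower level, and 324 genes of that kind are described here. They were chosen from the measured values themselves, out of 36809 gene identifiers present in the tables of all 3 organs. Polyadenylated RNA from the brain, the liver and the whole testis of 11-week-old male C57BL/6 mice had been sequenced, with 1 library per organ and no treatment or altered genotype named. Gene levels were FPKM, fragments per kilobase of transcript scaled to the number of mapped fragments, each with an interval given by the authors. A gene was eligible when its locus spanned 200 bp or more, its estimate was marked OK in every table, and it reached 5 FPKM in brain and in liver, which 4683 genes did. It was a member when the lower of its brain and liver values of log2(FPKM + 1) exceeded the testis value by 2 or more, that is 4-fold on that scale. These members were 6.92% of the eligible genes. Because the levels chose the genes, their differences are given as a description, and with 1 library per organ no test was made and nothing can be set against the spread between animals.

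An organ is a mixture of cells. Neurons and glia fill the brain, hepatocytes the liver, and in an adult testis germ cells at successive stages of meiosis and sperm formation outnumber the Sertoli, Leydig, vascular and immune cells around them. Most housekeeping genes serve all of these cells, but spermatogenic cells are known for replacing part of the common metabolic machinery with isoforms of their own, many of them intronless copies of a parent gene, and for silencing the X chromosome during male meiosis. In whole organs, fewer cells of a type and less RNA per cell cannot be told apart.

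The labels were checked against marker genes of the cells each organ should hold. Brain cell markers summed to 4859 FPKM in brain against 36.1 in liver and 42.4 in testis. Hepatocyte markers summed to 58183 FPKM in liver, 1634 in brain and 15.2 in the testis, and Ttr alone gave 1625 of the brain sum. Markers of germ cells summed to 43168 FPKM in the testis, 37.6 in brain and 2.50 in liver, and those of Sertoli and Leydig cells to 925, 11.0 and 26.6 in the same order. Depth, read from the authors' intervals, was highest for liver, with 86.3 M implied fragments, against 40.9 M for testis and 31.8 M for brain, so liver values were the most precise. Only with values scaled to the FPKM sum of all features, which features other than protein-coding genes dominate in brain, did many members change direction: 238 of the 324 were then still lower in testis, against all 324 with scaling to the protein-coding sum or to the median ratio.

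Few of the 324 genes were missing from the testis, although they are described as lost there. At 1 FPKM or more in testis stood 245 of them, or 75.6%, while 79 were under 1 FPKM and 6 under 0.1 FPKM. The median member was at 32.1 FPKM in brain, 37.6 in liver and 2.75 in the testis. Differences between the lower somatic organ and testis had a median of 2.48 and a maximum of 6.26 on the log2 scale, whereas the median of all eligible genes was -0.44. Between 4-fold and 8-fold lay 262 members, 62 were 8-fold or more lower, and 17 were 16-fold or more lower. For 323 members the upper bound in testis was under the lower bounds of brain and liver. The exception was the chemokine gene Ccl9, at 32 FPKM in brain, 757 in liver and 0.0638 in the testis, whose interval in brain reached down to 0. The testis level of 25 members rested on fewer than 10 implied fragments, and the median rested on 129.

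**Figure D1:**
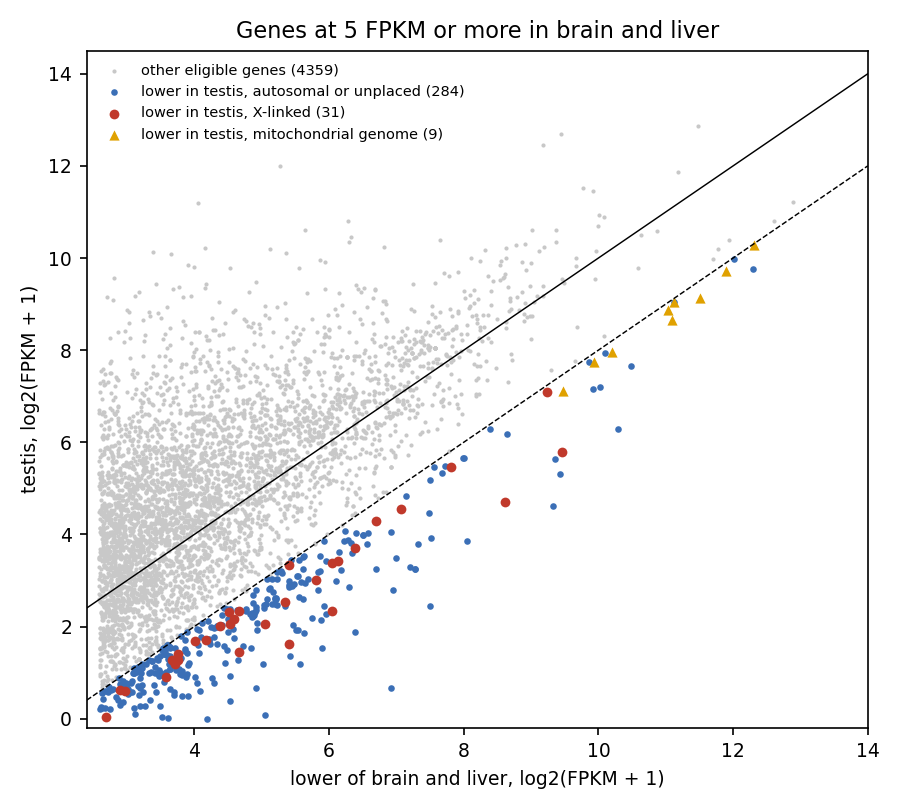
Testis level against the lower of the brain and liver levels for the 4683 eligible genes, both as log2(FPKM + 1), 1 point per gene. The solid line marks equal levels and the dashed line the 4-fold limit; the 324 members lie on or below the dashed line, with X-linked members in red and genes of the mitochondrial genome as triangles.

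Brain and liver held these genes at about the same level more often than not. Within 2-fold of each other were 182 members (56.2%), against 62.2% of the eligible genes, while 33 were 4-fold or more higher in liver and 8 in brain. The same rule turned around gave 98 genes low in brain among 4247 at 5 FPKM in testis and liver (2.31%), and 674 genes low in liver among 5660 at 5 FPKM in testis and brain (11.9%). In the other direction, 3300 of the 9278 genes at 5 FPKM in testis were 4-fold or more above both brain and liver (35.6%). By class, 242 members were protein-coding, which is 6.93% of the 3491 protein-coding genes that were eligible. Another 52 were pseudogenes and 25 had identifiers without a match in the reference annotation.

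Just inside the limit stood Myh9, a nonmuscle myosin heavy chain, at 11.1 FPKM in brain, 25.1 in liver and 2.02 in the testis. With it were the glucocorticoid receptor gene Nr3c1 (9.10, 6.38 and 0.841 FPKM) and the tetraspanin gene Tspan12 (13.0, 74.4 and 2.48). Just outside stood 1110012L19Rik (9.65, 7.70 and 1.18 FPKM), the signalling adaptor gene Grb2 (155, 54.3 and 12.9) and the dynein light chain gene Dynlt3 (50.9, 26.2 and 5.82). Nothing but the limit separates these from each other. The requirement of an estimate marked OK also kept genes out: Ttr, the thyroid hormone carrier transthyretin, was at 1625 FPKM in brain and 6286 in liver and listed at 0.222 in testis, where its estimate was marked as low data. With all estimates admitted the members numbered 339.

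Nrn1, which encodes the membrane-anchored growth factor neuritin, showed the largest difference of all. It was at 120 FPKM in brain (interval 115 to 124), 122 in liver (119 to 125) and 0.577 in the testis (0.278 to 0.876), a difference of 6.26. Its locus is chr13:36817494-36826346 on mm9. Brain and liver overlapped for this gene and the testis stood far below. Ndrg2, a differentiation-associated gene of the N-myc downstream regulated family, came next at 219, 179 and 4.44 FPKM. Ptms, which encodes the acidic nuclear protein parathymosin, was at 687, 800 and 38.9 FPKM. A single member was listed at 0 in testis: Mal2, a membrane protein of transcytosis in polarized cells, at 44.9 FPKM in brain and 17.3 in liver.

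**Figure D2:**
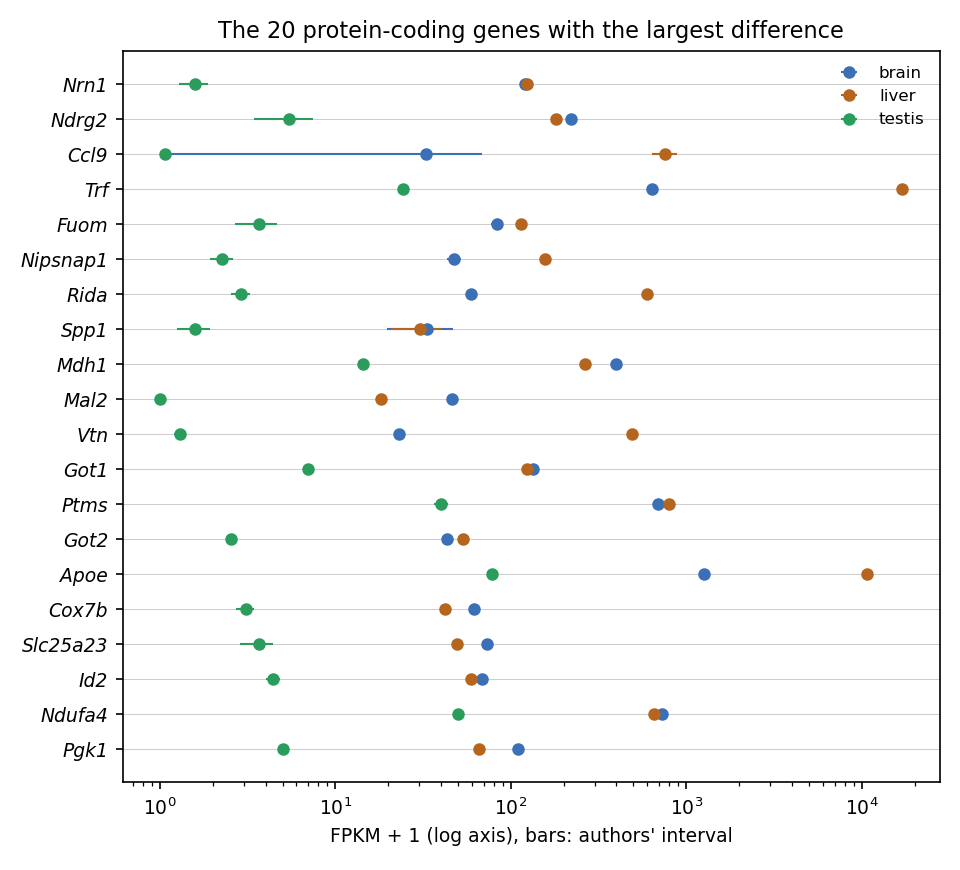
Levels in brain, liver and testis of the 20 protein-coding genes with the largest difference, as FPKM + 1 on a log axis, with the authors' intervals as bars. Testis points lie to the left of both others for all 20 genes, from Nrn1 at the top with a difference of 6.26 to Pgk1 at the bottom with 3.70.

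The malate-aspartate shuttle, which carries reducing equivalents from the cytosol into mitochondria, had its enzymes of both compartments among the members. Mdh1, the cytosolic malate dehydrogenase (mm9 chr11:21456790-21472370), was at 396 FPKM in brain, 262 in liver and 13.4 in the testis. Got1, the cytosolic aspartate aminotransferase (mm9 chr19:43574242-43599095), was at 134, 122 and 5.95 FPKM. Got2, its mitochondrial counterpart (mm9 chr8:98388034-98412447), was at 42.0, 52.4 and 1.55 FPKM. For each of the 3 genes the brain and liver values lay close together, and the differences were 4.19, 4.15 and 4.07. Other components were not lower to that extent. The mitochondrial malate dehydrogenase Mdh2 was at 195, 87.2 and 26.6 FPKM, a difference of 1.68, and the malate carrier Slc25a11 at 38.4, 16.8 and 11.4, a difference of 0.52. The aspartate carriers divided the organs between them, with Slc25a12 at 18.1 FPKM in brain, 1.51 in liver and 0.392 in the testis, and Slc25a13 at 0.741, 27.6 and 1.01, so neither was eligible. The glycerol phosphate shuttle does the same task by another route, and its enzymes differed from each other. The cytosolic Gpd1 was at 16.5, 34.1 and 5.23 FPKM, a difference of 1.49. The mitochondrial Gpd2 was at 10.4, 3.11 (interval 0 to 6.76) and 136 FPKM.

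Glutamate handling around that shuttle was lower in testis as well. Slc25a22, a mitochondrial glutamate carrier, was at 33.0 FPKM in brain, 22 in liver and 0.905 in the testis. Gls2, the liver-type glutaminase, was at 13.0, 171 and 0.921 FPKM. Slc38a3, a glutamine transporter of astrocytes and hepatocytes, was at 10.5, 120 and 0.0240 FPKM. Abat, which breaks down the transmitter GABA, was at 45.8, 64.5 and 5.26 FPKM. Glutamine synthetase, Glul, was no member, at 441, 153 and 300 FPKM. Its testis level lay between those of liver and brain.

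Amino acid breakdown was a larger group of this kind. On a list of amino acid and nitrogen metabolism, 7 of 26 eligible genes were members (26.9%), and the median difference of the eligible genes was 0.69 beside -0.44 for all. Besides Got1, Got2 and Abat these were Bckdhb (26.1, 44.0 and 4.22 FPKM), a subunit of the branched-chain ketoacid dehydrogenase, and Prodh (11.1, 37.3 and 1.46), which opens proline breakdown. Gcdh, of lysine breakdown, was at 9.32, 103 and 1.37 FPKM, and Amt, of the glycine cleavage system, at 9.33, 16.3 and 1.37. Members on no list but assigned to amino acid metabolism included Rida, which clears reactive enamines, at 58.4, 600 and 1.91 FPKM. Etnppl, a phosphoethanolamine lyase of astrocytes and liver, was given this role too, at 11.1, 68.9 and 0.00512 FPKM. Across 19 members assigned to amino acid metabolism after their values were seen, 16 were higher in liver than in brain. Of all 324 members 153 were. The lean to liver was not particular to this role: in lipid and sterol metabolism it held for 17 of 20 members.

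Some members act in monoamine and pterin metabolism, and 6 were assigned to it after their values were seen, with no list or share of all such genes behind the number. Qdpr, which regenerates tetrahydrobiopterin, the cofactor of the aromatic amino acid hydroxylases, was at 126 FPKM in brain, 199 in liver and 10.2 in the testis. Spr, which completes the synthesis of that cofactor, was at 18.6, 38.7 and 2.91 FPKM. Ddc, which makes dopamine and serotonin from their precursors, was at 7.60, 33.0 and 0.179 FPKM. Hnmt, which methylates histamine, was at 24, 26.5 and 1.42 FPKM. The X-linked Maob, a monoamine oxidase, was at 6.8, 32.1 and 0.515 FPKM.

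Central carbon metabolism gave 5 members of 32 eligible genes (15.6%), with a median difference of 0.45. Pgk1, the phosphoglycerate kinase of glycolysis, was at 108 FPKM in brain, 64.7 in liver and 4.06 in the testis (interval 3.70 to 4.42). Pdha1, a subunit of pyruvate dehydrogenase, was at 55.7, 24.3 and 1.73 FPKM (testis interval 1.55 to 1.91). Gapdh, the glycolytic dehydrogenase that often serves as a reference gene, was at 141, 57.1 and 10.5 FPKM. Pgm1, which links glycogen to glycolysis, was at 28.7, 66.1 and 3.97 FPKM, and Mdh1 was the fifth member. Of the 32 eligible genes 21 were lower in testis than in both somatic organs, and with scaling to the protein-coding sum or to the median ratio the list gave 8 members. Some enzymes of the same pathways were not lower than in both. Triose phosphate isomerase, Tpi1, was at 384, 194 and 272 FPKM, enolase, Eno1, at 396, 213 and 238, and the partner subunit of Pdha1, Pdhb, at 67.1, 49.9 and 88.3. Sugar-modifying enzymes outside the list included Fuom, a fucose mutarotase, at 82.8, 113 and 2.66 FPKM.

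For some of these enzymes a second gene was high in testis. Among 32 listed pairs of a somatic gene and a germ cell paralog, 31 with both genes in the tables, 25 had an eligible somatic gene, and in 9 of the 25 that gene was a member. In all 9 the partner was 4-fold or more above brain and liver in testis, and above the somatic gene there. This was not particular to members, since the partners were listed as germ cell paralogs. Where the somatic gene was eligible but no member, partners such as Ldhc, Clgn, Oaz3 and Txndc2 met both conditions too. Others, such as Ube2b and Aldoart1, did not. A high partner is therefore not tied here to a low somatic gene. For Pgk1 the partner is Pgk2, at 686 FPKM in the testis against 0.475 in brain and 0.0133 in liver. For Pdha1 it is Pdha2, at 50.5 FPKM in the testis against 0.0490 and 0.00286. For Gapdh it is Gapdhs, at 1254 FPKM in the testis against 0.653 and 0.0262. Pgk2 and Pdha2 have a single exon where Pgk1 and Pdha1 have 11 each, the mark of a retrocopy. Coding sequences of Pgk1 and Pgk2 were 79.3% identical, and those of Pdha1 and Pdha2 75.6%.

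The promoters of these 2 pairs are printed because their base composition differs within each pair. Each is 250 bases before to 50 bases after the start, from RefSeq on GRCm38.p6, with every CG dinucleotide in capitals. CG reads the same on both strands. The Pgk1 promoter (chrX:106186850-106187149, plus strand) holds 24 of them and the Pgk2 promoter (chr17:40208560-40208859, minus strand) 4. The Pdha1 promoter (chrX:160138381-160138680, minus strand) holds 21 and the Pdha2 promoter (chr3:141212306-141212605, minus strand) 4.
Pgk1: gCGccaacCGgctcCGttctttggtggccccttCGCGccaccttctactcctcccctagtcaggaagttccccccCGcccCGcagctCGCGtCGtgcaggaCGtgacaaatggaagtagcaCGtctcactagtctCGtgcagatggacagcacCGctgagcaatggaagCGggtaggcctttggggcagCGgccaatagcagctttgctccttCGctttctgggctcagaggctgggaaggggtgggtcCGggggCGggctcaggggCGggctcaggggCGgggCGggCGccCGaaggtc
Pgk2: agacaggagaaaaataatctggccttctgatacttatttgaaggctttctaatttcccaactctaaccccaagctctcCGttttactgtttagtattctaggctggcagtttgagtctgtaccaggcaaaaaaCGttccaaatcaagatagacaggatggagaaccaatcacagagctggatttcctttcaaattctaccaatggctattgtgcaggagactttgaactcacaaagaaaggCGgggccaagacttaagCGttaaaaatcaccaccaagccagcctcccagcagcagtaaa
Pdha1: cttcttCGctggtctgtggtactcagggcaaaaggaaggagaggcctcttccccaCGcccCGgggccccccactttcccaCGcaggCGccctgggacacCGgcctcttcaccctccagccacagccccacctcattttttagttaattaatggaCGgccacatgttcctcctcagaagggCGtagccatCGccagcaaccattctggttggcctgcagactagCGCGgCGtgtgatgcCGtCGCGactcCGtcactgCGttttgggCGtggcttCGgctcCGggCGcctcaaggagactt
Pdha2: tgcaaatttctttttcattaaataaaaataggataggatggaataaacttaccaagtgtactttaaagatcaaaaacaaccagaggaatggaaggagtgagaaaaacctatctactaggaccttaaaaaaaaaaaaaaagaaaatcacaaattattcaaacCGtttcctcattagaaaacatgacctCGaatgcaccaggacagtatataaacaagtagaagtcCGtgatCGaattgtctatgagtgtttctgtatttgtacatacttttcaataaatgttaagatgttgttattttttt
Among 27025 mouse promoters of this length in the same source, 94.2% hold at least 1 CG, the median is 7, 25% hold 21 or more and 38.3% hold 4 or fewer. These are not limited to protein-coding genes. Among the other eligible protein-coding genes 2665 of 3249 had a promoter, with a median of 23 CG, close to the counts of Pgk1 and Pdha1. The contrast was not general. Of 19 pairs described here 14 had a promoter for each gene, and the somatic promoter held more CG in 9, the partner promoter in 4. Cox7b went the other way, with 5 CG in its own promoter and 10 in that of Cox7b2. The counts describe these windows only.

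Respiratory chain genes formed the same kind of pairs. Cox7b, an X-linked subunit of cytochrome oxidase (mm9 chrX:103211039-103217789), was at 60.3 FPKM in brain, 41.3 in liver and 2.07 in the testis, while Cox7b2 was at 2.68, listed at 0, and at 578. Cox8a was at 131, 48.0 and 8.49 FPKM, and its partner Cox8c at 882 in testis. Cox6b1 was at 307, 203 and 39.1 FPKM, and Cox6b2 at 133 in testis. Slc25a5, an ATP/ADP carrier of the inner mitochondrial membrane, was at 70.6, 69.0 and 9.80 FPKM, and Slc25a31 at 25.3 in testis. Among chaperones Hspa8, the constitutive heat shock protein of the cytosol, was at 1380, 1039 and 146 FPKM, and Hspa2, its meiotic relative, at 432 in testis. Coding identity within the 9 listed pairs ran from 58.2% to 84.7%.

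**Figure D3:**
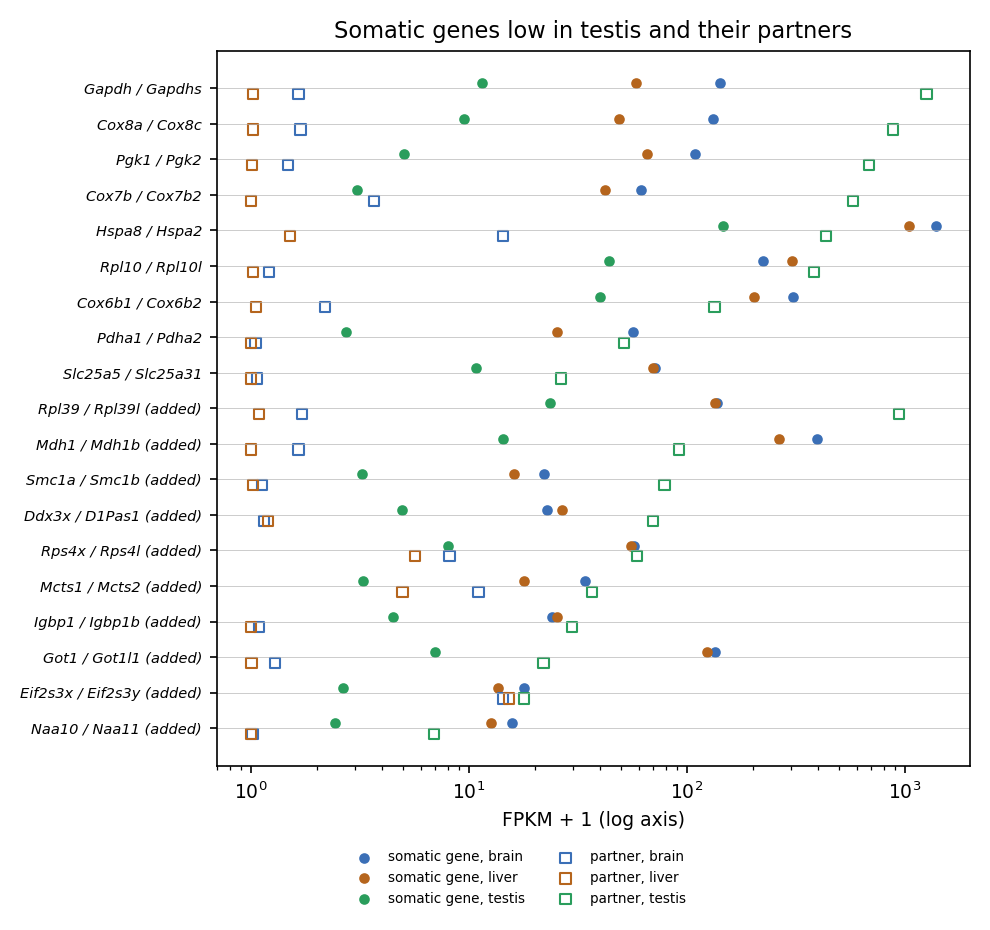
Levels of 19 somatic genes (filled circles) and their partners (open squares) in brain, liver and testis, as FPKM + 1 on a log axis. Pseudogene copies of these genes are not drawn. The listed pairs and those added after values were seen are marked apart; in testis the partner lies above the somatic gene in all 19 pairs, by most in Pgk2 over Pgk1 and Cox7b2 over Cox7b among those named here.

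Most nuclear genes of the respiratory chain did not reach the 4-fold limit. On the list of 69 genes 66 were eligible and 5 were members (7.58%), close to the 6.92% of all eligible genes. The testis level was below both somatic organs for 45 of the 66, with a median difference of 0.36. Besides Cox7b, Cox8a and Cox6b1 these were Ndufa4, an oxidase-associated subunit, at 723, 654 and 48.9 FPKM, and Atp5g3, a subunit of the ATP synthase ring, at 335, 333 and 77.5. Subunits such as Cox4i1 (635, 300 and 362 FPKM) and Uqcrc1 (179, 170 and 244) stood in testis between or above the somatic organs. The X-linked Ndufb11 had a difference of 3.04, at 69.5, 79.3 and 7.55 FPKM, but its liver estimate was marked as failed and it was left out.

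Transcripts of the mitochondrial genome itself were lower in testis for all 13 protein genes, except that with scaling to the FPKM sum all 13 turned around, with a median of -0.72. As deposited their median difference was 2.03, and 7 of the 13 passed the limit (53.8%). The members were mt-Nd2, mt-Nd3, mt-Nd4, mt-Nd4l and mt-Nd5 of complex I, mt-Cytb of complex III and mt-Atp6 of the ATP synthase. The largest difference was that of mt-Nd2, at 2172 FPKM in brain, 2935 in liver and 400 in the testis. mt-Atp6 was the highest of them, at 5434, 5093 and 1249 FPKM. The 6 that did not pass ran from 1.31 for mt-Nd6 to 1.82 for mt-Co1. Both mitochondrial ribosomal RNA genes were members as well, mt-Rnr1 at 6492, 707 and 138 FPKM and mt-Rnr2 at 7704, 978 and 212. Other mitochondrial membrane proteins among the members included Nipsnap1 (46.6, 155 and 1.27 FPKM), which marks damaged mitochondria for removal, the calcium-regulated carrier Slc25a23 (72.2, 48.6 and 2.65) and the outer membrane channel Vdac1 (290, 104 and 18.6). Its relatives Vdac2 (70.3, 20.1 and 192) and Vdac3 (48.0, 18.9 and 127) were highest in testis.

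Chromosome position was not used to choose the genes, and the X chromosome stood out. Of 91 eligible protein-coding genes on X 25 were members, 27.5% (exact 95% binomial interval 18.6 to 37.8, counting error only), against 210 of 3384 on autosomes, 6.21% (5.42 to 7.07). Over all classes 31 of 202 X-linked genes were members (15.3%). The median difference of the protein-coding genes on X was 1.25, and on autosomes -0.46. X thus held 10.3% of the protein-coding members and 2.61% of the protein-coding eligible genes. With scaling to the FPKM sum the medians were -0.43 and -2.31. Over all classes X then held 5.26% of the 38 members and 5.30% of the eligible genes, so its higher share was not seen there. Among protein-coding genes eligible without scaling, 2 of 91 on X and 23 of 3384 on autosomes reached a difference of 2 or more. Genes low in brain by the mirrored rule gave 0 of 56 protein-coding genes on X (upper exact 95% bound 6.38%) and 88 of 3045 on autosomes (2.89%). Genes low in liver gave 13 of 72 on X (18.1%) and 579 of 4288 on autosomes (13.5%). Among autosomes the share of protein-coding members was lowest on chromosome 12, with 2 of 119, and highest on chromosome 2, with 23 of 265 (8.68%).

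**Figure D4:**
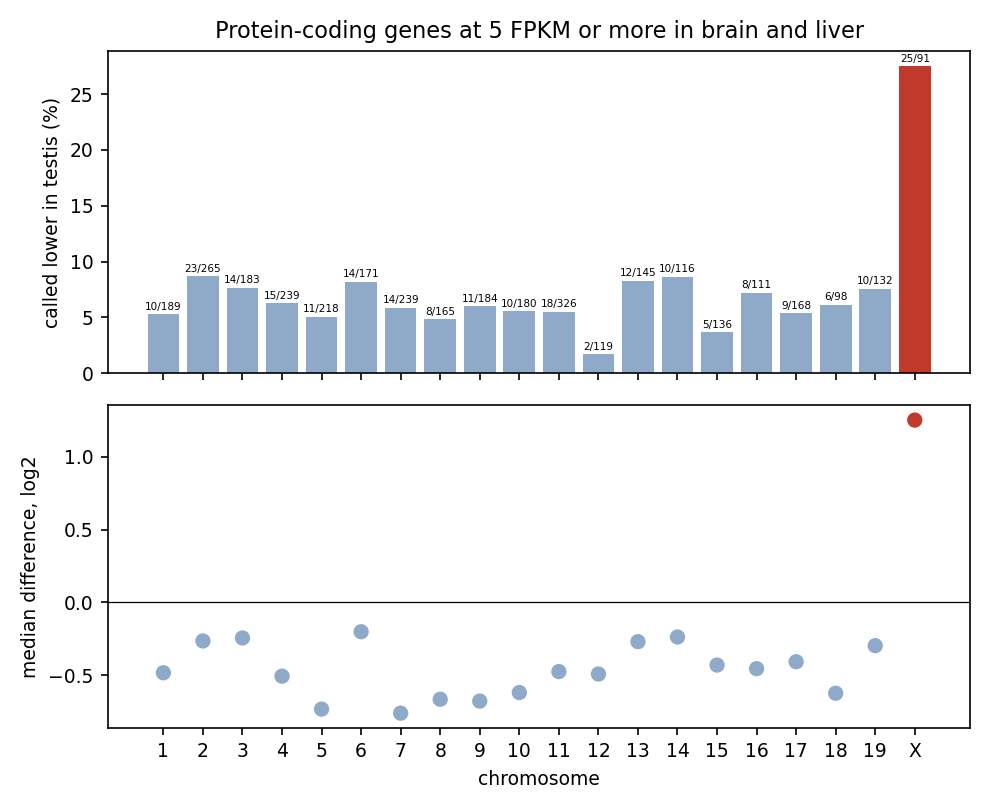
Share of eligible protein-coding genes that were members (upper panel, percent, with members over eligible genes above each bar) and their median difference on the log2(FPKM + 1) scale (lower panel), per chromosome. X, in red, stands at 27.5% and 1.25; no autosome exceeds 8.68%.

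X-linked members came from many housekeeping functions. After Cox7b, Pgk1 and Pdha1 the largest differences were those of C1galt1c1, the chaperone of an O-glycan synthase, at 37.5, 32.2 and 3.12 FPKM, and Sat1, which acetylates polyamines, at 39.5, 41.1 and 4.81. Ribosomal proteins were Rps4x (56.1, 54.7 and 7.02 FPKM), Rpl39 (137, 133 and 22.5), Rpl10 (223, 304 and 42.8) and Rpl36a (122, 102 and 18.4). With no list or share of all such genes behind the number, 10 members were assigned to ribosome and translation after their values were seen. Of these 10 members 8 were X-linked. The other 2 were copies of X-linked genes by name, Rpl36a-ps1 (453, 397 and 72.0 FPKM) and Rpl10-ps3 (252, 360 and 49.9). The translation factors were Eif2s3x, a subunit of the initiation complex that brings the first transfer RNA, at 17.0, 12.5 and 1.64 FPKM, and Mcts1, of translation reinitiation, at 33.0, 17.0 and 2.27. Further members on X included Ddx3x, an RNA helicase (21.8, 25.8 and 3.94), Smc1a, a cohesin subunit (21.2, 15.1 and 2.23), and Hprt, of purine salvage (118, 41.3 and 9.05). Gjb1, the gap junction protein of liver and myelin, was at 5.46, 95.3 and 0.0189 FPKM. Outside Gjb1 and 2 others, Maob and Xiap (6.44, 11.6 and 0.535 FPKM), the X-linked protein-coding members stayed above 1 FPKM in testis.

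Several of these, too, have a partner elsewhere in the genome. Rpl10l, the autosomal single-exon relative of Rpl10, was at 383 FPKM in the testis, 0.210 in brain and 0.0226 in liver. A further 10 pairs were chosen after the values were seen, 8 of them with an X-linked somatic gene, and are given as examples only. Rpl39l was at 935 FPKM in the testis, 0.710 in brain and 0.0877 in liver. Rpl39 was at 22.5 FPKM in testis, but its pseudogene Rpl39-ps, 99.3% identical, was listed at 871 there. How reads were shared between Rpl39 and this copy was not tested. D1Pas1, the partner of Ddx3x, was at 69.0 FPKM in the testis, and Smc1b, the meiotic cohesin partner of Smc1a, at 78.0. Eif2s3y, on the Y chromosome, did not share this pattern, at 13.4 FPKM in brain, 14.2 in liver and 16.9 in the testis. Outside X, Mdh1b was at 90.7 FPKM in the testis, against 13.4 for Mdh1. Got1l1 was at 21 FPKM in the testis, against 5.95 for Got1.

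Near-identical copies limit what single values mean for part of this group. Of the 52 pseudogene members 46 matched best a protein-coding gene that was itself a member (88.5%), with a median identity of 98.7%, while 11 of the other 904 eligible pseudogenes did (1.22%). Gapdh accounted for 19 of them, Rpl10 for 4 and Slc25a5 for 3. Identities ran from 84.8% to 100%, and where a copy is nearly identical its reads may not be separable from those of the parent, which was not tested. The values of these pseudogenes and of their parents may therefore not be independent. Copies stood above their parents in some cases, such as Pgk1-rs7 at 8.44 FPKM in testis against 4.06 for Pgk1. Others stood below, such as Gm10291 at 1.14 against 10.5 for Gapdh. The somatic levels in the pairs carry the same limit.

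Iron and haem handling held some of the most abundant members. Trf, the plasma iron carrier transferrin, was at 641 FPKM in brain, 17060 in liver and 23.4 in the testis. Fth1, the heavy chain of ferritin, was at 3241, 1089 and 242 FPKM. On the iron list 2 of 5 eligible genes were members (40%), and the light chain of ferritin, Ftl1, at 79.2, 766 and 33.7, was not. The 4 globin genes were members too. Hbb-bs was at 153, 61.3 and 3.81 FPKM, Hbb-bt at 115, 44.7 and 2.81, Hba-a1 at 152, 52.9 and 3.53, and Hba-a2 at 124, 43.0 and 3.06. Red blood cell markers, 8 in all with these 4, summed to 545, 243 and 20.2 FPKM, with the anion exchanger gene Slc4a1 at 0.0908, 0.0212 and 0.00588, and the part of blood in the samples was not tested.

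Lipid and sterol metabolism gave 5 members of 26 eligible genes on its list (19.2%), or 8 with scaling to the protein-coding sum, with a median difference of 0.67. Apoe, which carries lipids between cells, was at 1258 FPKM in brain, 10747 in liver and 77.6 in the testis. Lrp1, a receptor of Apoe, was at 13.6, 20.3 and 1.87 FPKM. Insig1, which holds the sterol sensor in the endoplasmic reticulum, was at 17.9, 72.6 and 2.96 FPKM, and Srebf1, a transcription factor of fatty acid synthesis, at 5.90, 15.3 and 0.551. The fifth was Elovl6, a fatty acid elongase (8.99, 10 and 1.43). Enzymes of cholesterol synthesis matched on the list were all outside, among them the squalene synthase gene Fdft1 (20.5, 20.5 and 105). Off the list, Msmo1, of the same pathway, was a member at 48.1, 51.8 and 5.08 FPKM. Of the fatty acid oxidation and peroxisome list 2 of 27 were members (7.41%), or 8 with scaling to the protein-coding sum: Phyh, of branched-chain fatty acid oxidation (56.0, 673 and 5.92), and Acaa1a, a peroxisomal thiolase (20.7, 64.5 and 4.26).

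Lysosomal genes were members in 5 of 23 cases (21.7%), with a median difference of 0.57. The proteases Ctsb (59.3, 42.8 and 6.4 FPKM), Ctsd (257, 210 and 43.6) and Ctsz (21.5, 85.4 and 4.2) were among them. The others were Scarb2, a membrane protein that delivers glucocerebrosidase (19.1, 37.6 and 2.08), and Npc1, the lysosomal cholesterol exporter (7.13, 5.38 and 0.507). Ctsl, another protease, was at 68.3, 364 and 228 FPKM, above brain in testis. Of the antioxidant and detoxifying list 2 of 29 were members (6.90%), or 6 with scaling to the protein-coding sum, among them Gstp1, a glutathione transferase (61.2, 657 and 9.78). Sod1, which removes superoxide, was at 248, 630 and 252 FPKM and did not differ between brain and testis by more than 2-fold.

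Growth factors, receptors and signalling genes had the lowest median level in testis of the 15 roles, 0.868 FPKM. Of 28 genes assigned to this role after their values were seen 17 were under 1 FPKM there. Vegfa, the vascular growth factor, was at 15.1 FPKM in brain, 38.0 in liver and 0.883 in the testis. Fgf1, an acidic fibroblast growth factor, was at 18.9, 15.9 and 0.522 FPKM. S1pr1, the sphingosine phosphate receptor of endothelium and other cells, was at 36.8, 9.74 and 0.502 FPKM. Spp1, the secreted phosphoprotein osteopontin, was at 32.4, 29.3 and 0.593 FPKM, and Vtn, the matrix protein vitronectin, at 22.2, 487 and 0.299. On the insulin and growth factor list 4 of 10 eligible genes were members (40%): the binding proteins Igfbp2 (28.4, 77.2 and 4.74) and Igfbp4 (29.0, 302 and 5.93), the regulatory subunit Pik3r1 (18.0, 10.1 and 0.914) and the adaptor Grb14 (28.2, 30.0 and 5.43). The kinase gene Akt2 was not, at 18.7, 17.9 and 17.3 FPKM.

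Transcription regulators among the members included Id2, an inhibitor of basic helix-loop-helix factors, at 67.4, 57.9 and 3.41 FPKM, and its relative Id3, at 15.7, 17.7 and 1.69. Bhlhe40, a repressor tied to the clock and to hypoxia, was at 32.2, 13.0 and 1.04 FPKM and was the single member among 5 eligible clock genes (20%). Nr3c1 was the single member of 10 glucocorticoid-related genes (10%), and Ifit3 (7.57, 7.04 and 0.564) that of 8 interferon pathway genes (12.5%). None of the 7 immediate early and stress genes, 9 antigen presentation genes or 5 complement genes eligible on their lists was a member. Their median differences were nonetheless 1.21, 0.91 and 1.24. Scaling changed this: with the median ratio 2 immediate early genes and 1 antigen presentation gene passed, and with the protein-coding sum 2 antigen presentation genes and 1 complement gene did. The clock list then gave 2, the interferon list 3 and the glucocorticoid list 0 with the protein-coding sum, and the glucocorticoid list 2 with the median ratio. Off the antigen presentation list, the class I gene H2-T22 was a member without scaling, at 10.1, 49.8 and 1.42 FPKM. Adhesion and junction genes gave 2 of 13 (15.4%), Gjb1 and S100a1, a calcium-binding protein, at 179, 314 and 21.2 FPKM. Over the 17 function lists 49 of 314 eligible genes were members, 15.6% beside 6.92% of all eligible genes. The lists were drawn up with earlier results of these data known, so that contrast is a description.

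**Figure D5:**
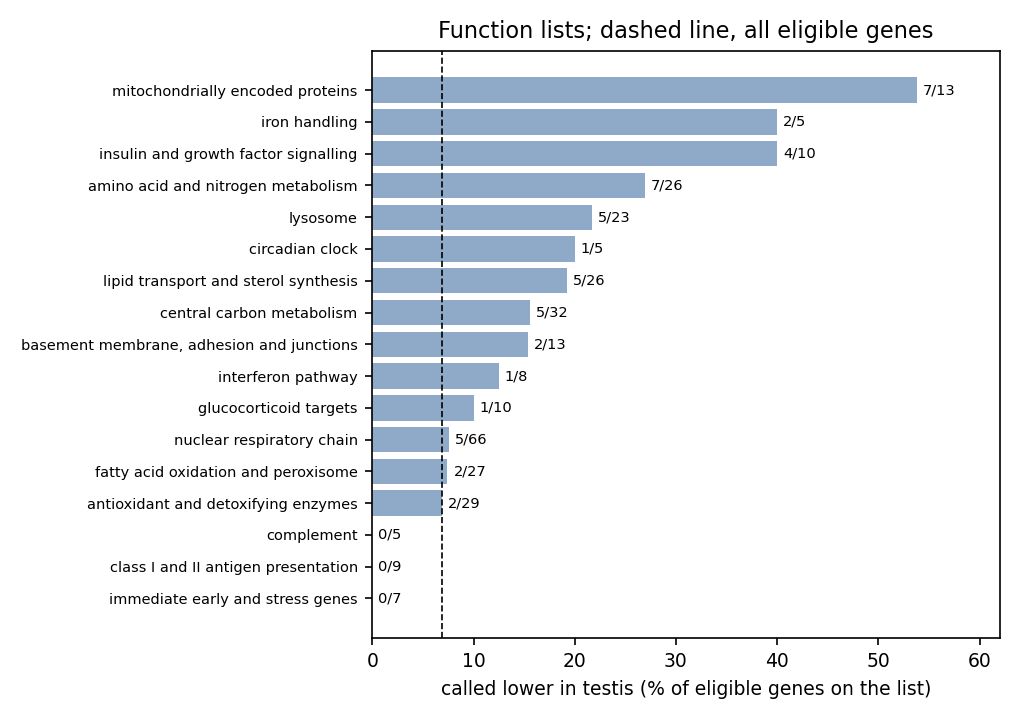
Members as a percentage of the eligible genes on each of 17 function lists, with members over eligible genes at each bar. The dashed line marks the 6.92% of all eligible genes; mitochondrially encoded proteins stand highest at 53.8% (0 of 13 with scaling to the FPKM sum), and 3 lists hold no member.

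Some cytoskeletal and chaperone members had a relative that was highest in testis, set beside them after the values were seen. Tubb2a, a beta tubulin, was at 281 FPKM in brain, 67.7 in liver and 6.93 in the testis, and Tubb2b at 185, 39.8 and 4.49, while Tubb4b was at 101, 36.4 and 487. Hsp90ab1, a constitutive cytosolic chaperone, was at 1169, 933 and 213 FPKM, while its relative Hsp90aa1 was at 653, 274 and 1025. The mitochondrial chaperone Hspd1 was at 74.1, 184 and 15.8 FPKM. Its partner Hspe1, just short of the limit with a difference of 1.92, was at 79.8, 138 and 20.3. Xbp1, a transcription factor of the unfolded protein response, was at 29.6, 48.9 and 2.80 FPKM. Ppa1, a cytosolic pyrophosphatase, was at 48.1, 83.5 and 10.3 FPKM, and the mitochondrial Ppa2 at 44.9, 30.4 and 101. Not every relative looked up was highest in testis. Rpl36al, a relative of Rpl36a, was at 142, 237 and 207 FPKM, and Sat2, a relative of Sat1, at 6.51, 6.69 and 6.17.

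Cell types found in every organ were followed through their markers. Endothelial markers summed to 159 FPKM in brain, 106 in liver and 39.8 in the testis, with 25, 19 and 11 of 26 at 1 FPKM or more, and 0 of the 1 eligible gene was a member. Macrophage and microglia markers summed to 221, 135 and 424 FPKM, of which Aif1 alone gave 375 in testis, and Ctss, at 50.6, 28.0 and 3.90, was the single member of 8 eligible genes (12.5%). Fibroblast and mural cell markers summed to 92.6, 670 and 108 FPKM, with Vtn the single member of 4, or 2 members with the median ratio. Lymphocyte markers were at 2.46 FPKM or less in sum in every library. The part of these cell types in the lower testis levels was not tested.

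Genes without a protein-coding class were few once the pseudogenes were set aside. Among identifiers with no match the largest differences were those of ENSMUSG00000082401, at 181 FPKM in brain, 377 in liver and 14.1 in the testis, and ENSMUSG00000062196, at 60.0, 127 and 4.47. Long noncoding members were 2 of 21 eligible genes, 2210408F21Rik (14, 13.9 and 1.67 FPKM) and Gm11008 (36.4, 49.1 and 7.12). Igkc, an immunoglobulin constant segment made by plasma cells, was at 5.75, 34.8 and 0.547 FPKM.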

How the data were processed

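Strand-specific libraries of polyadenylated RNA were sequenced as single-end reads, per the labels' protocols. Cufflinks 2.0.0, Bowtie 0.12.5, TopHat 1.4.0 and the mm9 build are named in the submitters' processing notes, while the gene annotation is not given in the sources used here. The deposited tables held FPKM per gene with interval bounds and a status, per the file headers, and the level of those bounds is not stated there. Values were used as deposited, summed for 12 identifiers at more than 1 locus. Differences were taken on log2(FPKM + 1), with a pseudocount of 1, which understates those of low genes. The tables hold no counts, and implied fragments are the square of 2 times FPKM over the half-width of the interval. Such fragment numbers were whole for 73.8% (brain), 74.1% (liver) and 74.9% (testis) of low values, within 0.1. Calling and counting were tested on simulated data.

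Symbols and classes came from GENCODE M21 by identifier, loci from the tables (mm9, 1 added to the start), and promoters from RefSeq. A comparison of promoters over all members was void, since 186 of 235 nuclear protein-coding members had one (79.1%). Pseudogenes were matched to protein-coding transcripts with blastn 2.17.0 (coverage of at least 50%, e-value 1e-10). The 26 gene lists held 709 entries, with 698 found under their symbol, 6 under a former symbol and 5 unmatched.

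The members and lists were chosen with earlier results of these data known. Genes named are the 20 protein-coding members with the largest difference, the 10 highest, up to 5 per list, the X-linked leaders, those at the limit, the pairs and the leading noncoding members. A few genes that this choice gave are not reported here. Roles, 10 pairs and relatives set beside members were chosen after their values were seen. Alternatives covered the pseudocount, scaling, FPKM minimum, fold, locus length, status, intervals and gene class. Analysis used Python 3.11.15 with pandas 2.3.3 and scipy 1.17.1.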

Additional observations from a re-analysis of the deposited data

How the results depend on the processing

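No paired analysis was possible because each organ has 1 library, and for the same reason no replicate could be left out. The number of members was 324 and lay between 242 and 436 with other pseudocounts, FPKM minimums, locus lengths, statuses and intervals, with protein-coding genes alone, and with scaling to the protein-coding FPKM sum (398) or the median ratio (395). It was 793 at 2-fold and 62 at 8-fold by construction, and 210 for protein-coding autosomal genes, an alternative chosen after seeing the data. Scaled to the FPKM sum of all features it was 38, of which 2 (5.26%) were X-linked, and 238 of the 324 members were still lower in testis; over the eligible genes the median change in a gene's difference was -2.03 with that scaling and 0.46 with the median ratio. The share of members on X was otherwise between 8.58% and 10.9%. Genes low in brain numbered 65 at a minimum of 10 FPKM, 60 with the protein-coding sum and 3055 with the FPKM sum, against 98. Genes low in liver numbered 432, 1141 and 133 under the same settings and 406 with the median ratio, against 674. List genes called numbered 70 with the protein-coding sum and 58 with the median ratio, against 49. The cause of these shifts was not tested. Depth limits the 25 members under 10 implied fragments in testis.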

Other observations

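A stretch of chromosome 2 held 13 members among 27 eligible genes (48.1%), between 175100626 and 177640489 on mm9, or 2.54 Mb, against 28 of 382 on the rest of the chromosome (7.33%). The stretch was chosen after the values were seen, and members set both of its ends, which by itself raises its share. Just outside it Gm14399 (22.9, 8.97 and 3.49 FPKM) and Zfp971 (5.20, 5.58 and 0.599) were no members, while the pseudogene Gm14387 (33.7, 43.0 and 6.17) was. Of the 13, 7 are protein-coding genes of a zinc finger cluster, 4 have no match, 1 is a pseudogene and 1 is long noncoding. Gm14440 was at 41.2 FPKM in brain, 45.7 in liver and 6.21 in the testis, Gm14435 at 42.6, 47.6 and 6.49, Gm14288 at 41.2, 45.9 and 6.42, and Gm14327 at 45, 49.9 and 7.58. The values of these 4 genes nearly coincide within each organ. Zfp965 was at 11.4, 16.3 and 1.56 FPKM, Zfp968 at 8.18, 11.8 and 1.13, and Zfp970 at 7.57, 40.1 and 0.995. Other genes of the stretch were high in brain only, such as Gm14434 at 64.8 FPKM in brain, 9.84 in liver and 5.69 in the testis and Gm14308 at 43.3, 6.99 and 3.63. How reads were shared among such similar genes was not tested.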
